A study of Mus musculus with 6 samples.

Results

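The 10 genes described here encode enzymes and a chaperone that modify collagen chains and join them into fibres, and they were taken by symbol from a deposited table of 46095 genes. They are the lysyl oxidases Lox, Loxl1, Loxl2 and Loxl3, the lysyl hydroxylases Plod1, Plod2 and Plod3, the prolyl 4-hydroxylase alpha subunits P4ha1 and P4ha2, and the collagen chaperone Serpinh1. Of the 10, 10 passed the filter on low counts that left 16061 genes for testing. RNA was sequenced from cultured mouse nucleus pulposus cells, which come from the gel-like centre of the spinal disc, grown in serum-containing medium and taken at passage 2 from mice labelled male and 8 weeks old. There were 2 libraries each from wild-type mice, from mice labelled heterozygous for Chsy3 and from mice labelled as Chsy3 knockout. Chsy3 encodes a chondroitin sulfate synthase, which extends the sugar chains of proteoglycans. Although the series is titled as a knockdown, its samples are labelled by genotype, and those labels set the groups. The labels name neither the alleles nor the strain, and they do not say whether animals were pooled for a culture.

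A collagen chain is modified while it enters the endoplasmic reticulum. Prolyl 4-hydroxylases, built from an alpha subunit and the shared beta subunit P4hb, hydroxylate prolines that keep the triple helix stable at body temperature, and they need oxygen, iron and ascorbate. Lysyl hydroxylases modify lysines in the helix or, in the case of Plod2, in the short end regions called telopeptides. Serpinh1 (HSP47) binds the folded triple helix until export. Outside the cell, copper-dependent lysyl oxidases convert lysines and hydroxylysines into aldehydes, which then form the crosslinks of collagen and, with elastin, of elastic fibres. In the disc, the crosslinked collagen network restrains the swelling of the proteoglycan-rich nucleus.

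Total counts lay between 29622117 and 33899611 per library, so that 3 counts, the most that a count of 0 allows, correspond to 0.0880 to 0.104 counts-per-million units (CPM, here counts scaled by the normalised library size). Chsy3 was at 8.35 and 8.36 CPM in the wild-type, 5.79 and 6.20 in the heterozygous and 3.58 and 2.23 in the knockout libraries, so reads were still assigned to the gene in the knockout. The notochord genes T, Shh, Foxa2 and Noto were at 0 counts in every library, and Acan, the gene of the main disc proteoglycan, had 8 counts in 1 wild-type library and 0 elsewhere. The labelled cell type was therefore not supported by these markers, though others of the same list were read. The 12 nucleus pulposus and notochord markers summed to between 58.6 and 72.4 CPM but did not move as a unit. Mean Col2a1, Krt19 and Cd24a went from 22.8, 15.8 and 13.3 CPM in wild type to 5.65, 0.759 and 6.42 in heterozygous libraries. Mean Sox9 rose from 16 to 57.5 CPM. Of 5 tested, 1 was higher and 3 lower in heterozygous than in wild type, beside 19.2% and 19.7% of all tested genes. In knockout 1 was higher and 2 lower, beside 19.2% and 18.9%. The summed CPM of 15 macrophage markers, of which Aif1 was at 0, lay between 14694 and 14970 in wild type, 17798 and 17920 in the heterozygous and 17014 and 17216 in the knockout libraries. Lyz2 gave the largest part of that sum, with means of 7211, 8845 and 7025 CPM in that order. Of the 14 macrophage markers tested, 10 were higher and 0 lower in knockout than in wild type (edgeR), beside 19.2% and 18.9% of all tested genes. From wild type to heterozygous 7 were higher and 3 lower, beside 19.2% and 19.7%. In knockout against heterozygous 11 were higher and 2 lower, beside 19.1% and 17.9%. The Y-linked genes Ddx3y, Uty, Kdm5d and Eif2s3y were at 0 counts in both heterozygous libraries. Their means were 24.4, 8.06, 11.5 and 15.9 CPM in wild type and 31, 10.2, 11.8 and 20.7 CPM in knockout. Xist, the RNA of the inactive X chromosome, was read in all libraries, with mean levels of 659 (wild type), 1076 (heterozygous) and 652 CPM (knockout). Wild-type and knockout libraries thus held Y-linked reads together with Xist, and the male label was not borne out by these genes in any genotype. Whether cells of both sexes were mixed was not tested. In each comparison with the heterozygous libraries, a difference in the sex of the cells and the loss of 1 allele cannot be told apart. In cultures such as these, fewer cells of a type and less RNA per cell cannot be told apart either.

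In the knockout libraries 9 of the 10 genes fell against wild type and 0 rose, with Plod2 and Serpinh1 furthest down. Among all 16061 tested genes, 18.9% were called lower and 19.2% higher in the same comparison. The median log2 difference of the 10 genes was -0.28, beside -0.0031 for all tested genes. The exception was Plod1, at 0.09 ± 0.04 (SE; adjusted p = 0.0963), which at an unadjusted p (0.0419) would make 1 gene higher; DESeq2 also called 0 higher. In the heterozygous libraries the genes divided: Lox, Plod1 and P4ha2 rose, and Loxl1, Loxl2, Plod2, Plod3 and Serpinh1 fell, which is 3 higher and 5 lower against a background of 19.2% higher and 19.7% lower. Calls here are adjusted p-values under 0.05 from edgeR's quasi-likelihood F test over all tested genes.

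**Figure D1:**
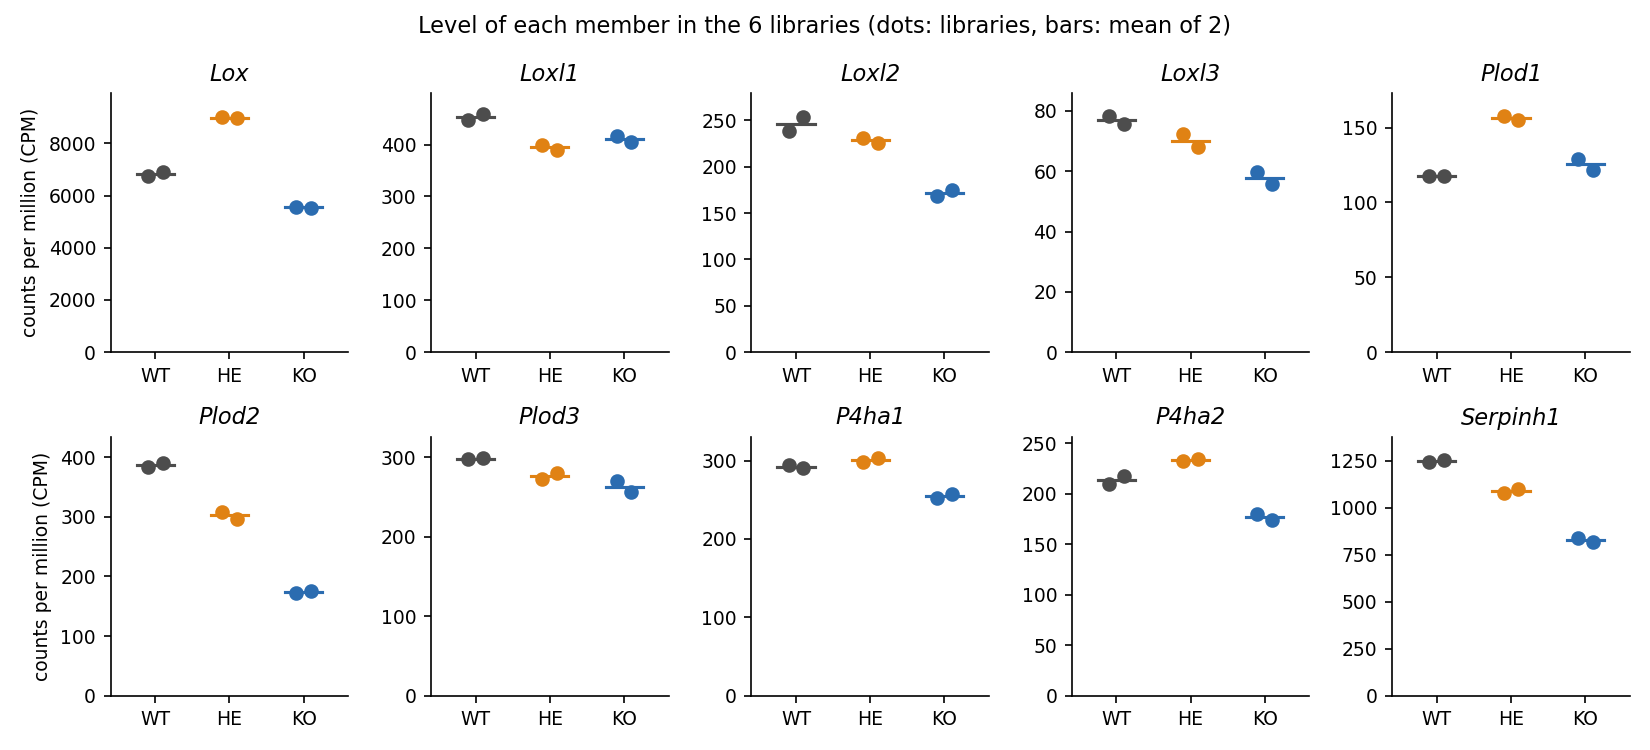
Level of each of the 10 genes in CPM (vertical axes, each from 0) in 2 wild-type (WT), 2 heterozygous (HE) and 2 knockout (KO) libraries. Dots are libraries and bars are means of 2. No pair of genotypes overlaps in any panel. The share of all tested genes without overlap was not counted, so this is not shown to be particular to the 10 genes. The knockout dots are the lowest for 8 genes, whereas heterozygous is lowest for Loxl1 and wild type for Plod1.

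Among the lysyl oxidases, Lox was by far the most abundant in each genotype. Lox, the founding enzyme of the family, lies on chromosome 18 at 52516067 to 52529867 of GRCm38 on the minus strand, 6.65 megabases from Chsy3 on the same chromosome. It stood at 6746 and 6892 CPM in wild type, at 9003 and 8968 in the heterozygous and at 5552 and 5534 in the knockout libraries. The heterozygous libraries were the highest and the knockout libraries the lowest, and neither overlapped with wild type. The log2 difference was 0.40 ± 0.02 in heterozygous against wild type (adjusted p = 2.7e-24) and -0.30 ± 0.02 in knockout against wild type (adjusted p = 6.24e-20). The loss of 1 allele and the loss of both thus went with changes of opposite sign, and the heterozygous level lay 0.55 ± 0.01 above the midpoint of the other genotypes on the log2 scale (adjusted p = 6.59e-32). An uncharacterised gene, AC161119.1, overlaps Lox on the opposite strand, and no source used here gives the strand setting of the counting.

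Loxl1, an oxidase best known for its part in elastic fibre upkeep, lies on chromosome 9 at 58287738 to 58313186. It was measured at 448 and 458 CPM in wild type, 399 and 390 in the heterozygous and 416 and 404 in knockout libraries. Both altered genotypes lay below wild type, by 0.20 ± 0.03 on the log2 scale in heterozygous (adjusted p = 6.67e-08) and by 0.14 ± 0.03 in knockout (adjusted p = 2.92e-05). It was the only gene of the 10 whose heterozygous libraries were the lowest, and the only one that lay significantly below the midpoint of wild type and knockout (log2 difference -0.13 ± 0.02, adjusted p = 2.37e-05), except that with library totals Plod3 did so too. Loxl2, which acts on collagen IV of basement membranes, lies on chromosome 14 at 69609068 to 69695834. Its levels were 239 and 254 CPM in wild type, 231 and 226 in the heterozygous and 168 and 175 in knockout libraries. The wild-type and heterozygous libraries lay close together and the knockout stood apart, with a log2 difference of -0.52 ± 0.04 against wild type (adjusted p = 1.96e-16). The smaller heterozygous difference of -0.11 ± 0.03 (adjusted p = 0.0109) rested on single libraries: it was -0.06 without wild-type replicate 2 (adjusted p = 0.277) and -0.10 without heterozygous replicate 2 (adjusted p = 0.0868).

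Loxl3, a family member needed for palate and spine formation in mice, lies on chromosome 6 at 83034173 to 83052562 and was the lowest of the 4 per kilobase of exon. Its values were 78.3 and 75.8 CPM in wild type, 72.2 and 68.1 in the heterozygous and 59.8 and 55.8 in knockout libraries. The levels stepped down from wild type to heterozygous to knockout without overlap. The knockout difference of -0.42 ± 0.06 passed the threshold (adjusted p = 5.25e-08), and the heterozygous one of -0.14 ± 0.06 fell just short of it (adjusted p = 0.0511). The latter passed in 7 of the 13 alternative settings, with adjusted p between 0.00978 and 0.0495 in those. Htra2 overlaps Loxl3, and the predicted genes Gm27177 and Gm37513 overlap Loxl2, on the opposite strand, so some of their reads may be shared.

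Of the lysyl hydroxylases, Plod2 fell, Plod3 moved little and Plod1 rose in the heterozygous libraries. Plod2, the telopeptide lysyl hydroxylase, is on chromosome 9 at 92542223 to 92608428. Its counts corresponded to 383 and 391 CPM in wild type, 308 and 297 in the heterozygous and 172 and 176 in knockout libraries. The 3 genotypes formed separate steps with the wild type on top. The log2 difference was -1.15 ± 0.03 in knockout (adjusted p = 2.87e-30) and -0.36 ± 0.03 in heterozygous libraries (adjusted p = 4.33e-13), which left the gene at 45.1% and 78.2% of the wild-type level. This was the widest span among the 10 genes, with 1.18 log2 units between the highest and the lowest library. The predicted gene Gm38391 overlaps Plod2 on the opposite strand.

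Plod1, which hydroxylates lysines within the helix, is on chromosome 4 at 147909753 to 147936767. It was at 118 CPM in each wild-type library, at 158 and 155 in the heterozygous and at 129 and 122 in the knockout libraries. Only in this gene did wild type hold the lowest values. The heterozygous rise was 0.40 ± 0.04 on the log2 scale (adjusted p = 5.96e-11). The knockout difference of 0.09 was called only with library totals in place of normalised sizes (0.11, adjusted p = 0.0312) or without knockout replicate 2 (0.13, adjusted p = 0.0382). Plod3, an enzyme with both lysyl hydroxylase and glycosyltransferase activity, is on chromosome 5 at 136987019 to 136996648 and overlaps Znhit1 on the opposite strand. Its libraries read 297 and 299 CPM in wild type, 272 and 280 in the heterozygous and 270 and 256 in knockout. It fell by 0.18 ± 0.03 in knockout (adjusted p = 8.42e-06) and by 0.11 ± 0.03 in heterozygous libraries (adjusted p = 0.0049). The heterozygous call was lost without heterozygous replicate 1 (-0.09, adjusted p = 0.0963).

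The make-up of the lysyl hydroxylase family shifted with these differences. Per kilobase of exon, Plod2 made up 46.2% ± 0.29 (SD, n = 2) of the summed level of the 3 genes in wild type, 40.0% ± 0.924 in the heterozygous and 29.6% ± 1.14 in knockout libraries. Plod3 went from 42.5% ± 0.217 in wild type to 53.4% ± 0.802 in knockout and so took the largest share there. Plod1 held 11.3% ± 0.073 in wild type, 16.5% ± 0.119 in the heterozygous and 17.0% ± 0.334 in knockout libraries. The summed level was 155 ± 1.3 CPM per kilobase in wild type, 140 ± 0.486 in the heterozygous and 109 ± 2.55 in knockout. Among the lysyl oxidases, with Loxl4 included, Lox held 87.0% ± 0.00989 in wild type, 90.5% ± 0.13 in the heterozygous and 86.6% ± 0.135 in knockout libraries, so it was the main lysyl oxidase message in each. The summed lysyl oxidase level followed Lox, at 1640 ± 24.7, 2078 ± 8.58 and 1340 ± 5.18 CPM per kilobase in that order. These shares describe the libraries and were not tested.

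**Figure D2:**
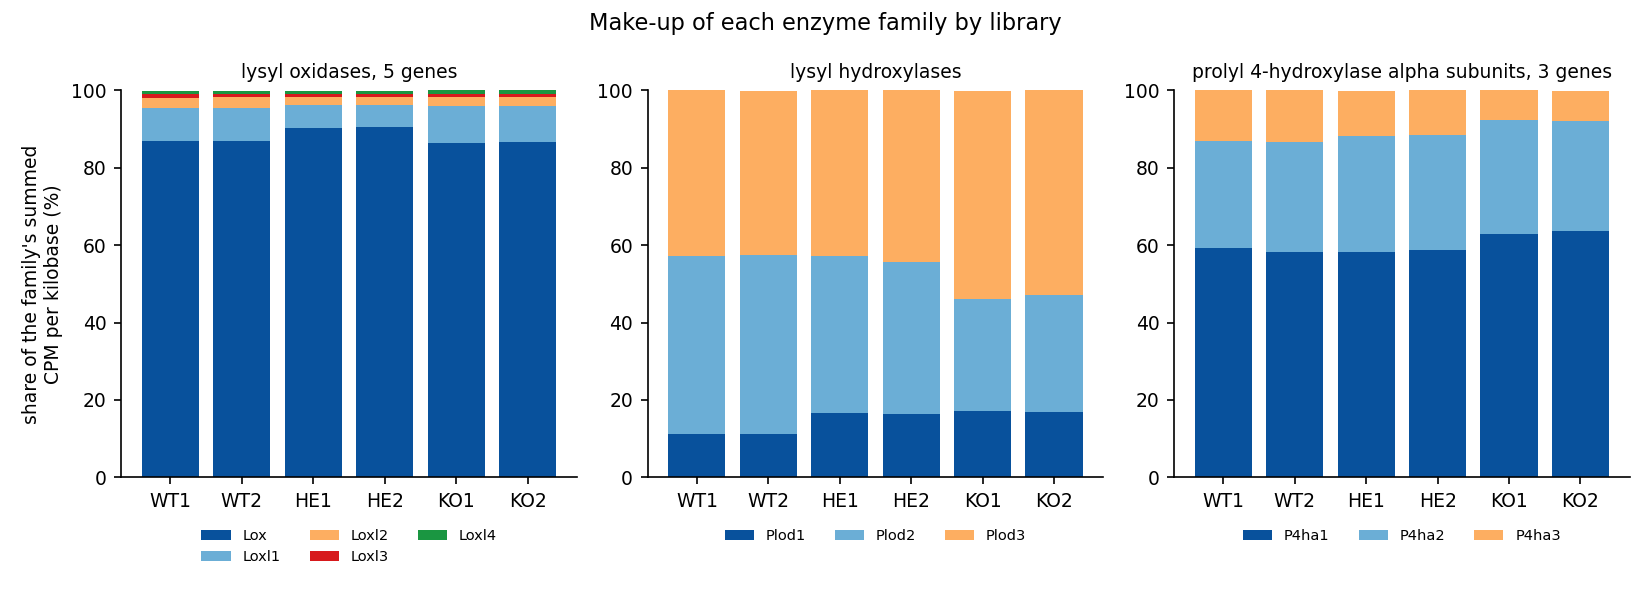
Share (vertical axis, percent) of each gene in the summed CPM per kilobase of its enzyme family, by library (WT, wild type; HE, heterozygous; KO, knockout; 2 libraries each). Lox fills between 86.6% and 90.5% of the lysyl oxidase bars on average, while in the lysyl hydroxylase bars Plod2 narrows from 46.2% in wild type to 29.6% in knockout.

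Both prolyl 4-hydroxylase alpha subunits were highest in the heterozygous and lowest in the knockout libraries. P4ha1, the main alpha subunit of most tissues, is on chromosome 10 at 59323296 to 59373304. It was at 294 and 290 CPM in wild type, 298 and 303 in the heterozygous and 252 and 257 in knockout libraries. The heterozygous libraries sat only just above wild type (0.04 ± 0.03, adjusted p = 0.295), and the knockout fell by 0.20 ± 0.03 on the log2 scale (adjusted p = 5.87e-07). P4ha2, the alternative alpha subunit found in skeletal tissues, is on chromosome 11 at 54100095 to 54131665. Its values were 209 and 217 CPM in wild type, 232 and 234 in the heterozygous and 180 and 174 in knockout libraries. The knockout was lower by 0.27 ± 0.03 (adjusted p = 1.63e-08), and the heterozygous libraries were higher by 0.13 ± 0.03 (adjusted p = 0.00193). Without wild-type replicate 1 the heterozygous difference of P4ha2 was 0.10 and missed the threshold (adjusted p = 0.0599). The third alpha subunit, P4ha3, is not among the 10 genes and fell further in the knockout, by 1.07 ± 0.07 (adjusted p = 1.35e-16). Its share of the summed alpha subunit level went from 13.1% ± 0.106 in wild type to 7.75% ± 0.153 in knockout libraries, against 63.2% ± 0.65 for P4ha1 there.

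Serpinh1, the collagen-specific chaperone, is on chromosome 7 at 99345376 to 99353239. It stood at 1244 and 1253 CPM in wild type, 1079 and 1098 in the heterozygous and 839 and 816 in knockout libraries. The 3 genotypes again formed separate steps downward. The log2 difference was -0.59 ± 0.02 in knockout (adjusted p = 2.45e-25) and -0.20 ± 0.02 in heterozygous libraries (adjusted p = 5e-10). Per kilobase of exon, Serpinh1 was the second most abundant of the 10 genes in wild type, at 511 CPM per kilobase, after Lox at 1427. Loxl1 followed at 137, then Plod2 at 71.7, P4ha1 at 71.0 and Plod3 at 66.0, where Plod2 and P4ha1 differed by less than the SD of Plod2 (1.05). Loxl2 at 45.6, P4ha2 at 34.1, Plod1 at 17.5 and Loxl3 at 16.7 CPM per kilobase closed the order.

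P4ha1, P4ha2 and Serpinh1 were among the 9 genes that fell in the knockout. As background, the first 2 are known hypoxia-induced genes and Serpinh1 a heat shock gene. The 250 bases before the RefSeq start sites of P4ha1, P4ha2 and Serpinh1 are shown. RefSeq (GRCm38.p6) promoter entries were matched by symbol for 5 of the 10 genes. Plod2, which fell furthest, and the lysyl oxidases had no entry, so their promoters could not be searched. Capitals mark the hypoxia response core in its forms ACGTG and GCGTG, searched on both strands, so that CACGT and CACGC are matches on the other strand.
P4ha1: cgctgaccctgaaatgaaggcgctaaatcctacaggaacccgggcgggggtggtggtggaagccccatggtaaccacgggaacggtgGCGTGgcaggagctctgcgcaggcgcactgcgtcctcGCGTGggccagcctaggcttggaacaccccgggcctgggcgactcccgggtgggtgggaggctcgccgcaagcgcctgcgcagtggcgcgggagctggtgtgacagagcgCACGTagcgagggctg
P4ha2: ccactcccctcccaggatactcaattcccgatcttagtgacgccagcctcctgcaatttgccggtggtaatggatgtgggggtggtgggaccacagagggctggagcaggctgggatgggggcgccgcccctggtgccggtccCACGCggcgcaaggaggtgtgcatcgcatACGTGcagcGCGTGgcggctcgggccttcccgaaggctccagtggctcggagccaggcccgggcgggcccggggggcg
Serpinh1: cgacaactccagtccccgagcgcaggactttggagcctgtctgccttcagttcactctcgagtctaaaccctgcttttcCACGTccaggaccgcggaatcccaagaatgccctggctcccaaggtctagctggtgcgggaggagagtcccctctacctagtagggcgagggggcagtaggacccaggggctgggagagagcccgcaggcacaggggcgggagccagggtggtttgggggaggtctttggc
The P4ha1 window is chr10:59323046-59323295 (plus strand), that of P4ha2 is chr11:54100674-54100923 (plus strand), and that of Serpinh1 is chr7:99353240-99353489 (minus strand, printed in the direction of the gene). The RefSeq start site of P4ha2 lies 829 bases inside the GENCODE span given above, so its window is within that span, whereas those of P4ha1 and Serpinh1 end at the start of theirs. P4ha1 had 3 matches, between 163 and 16 bases before the start, and P4ha2 had 3, between 107 and 69 bases before it. Serpinh1 had 1, at 171 bases. Plod3 had 4 matches and Plod1 had 1, and 38.6% of 32851 mouse promoter windows of the same length hold at least 1. The paired heat shock half-sites GAANNTTC or TTCNNGAA were found once in the P4ha2 window, 52 bases before the start, and 0 times in the P4ha1 and Serpinh1 windows, against 12.8% of all windows. These are letter matches, and factor binding was not measured.

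**Figure D3:**
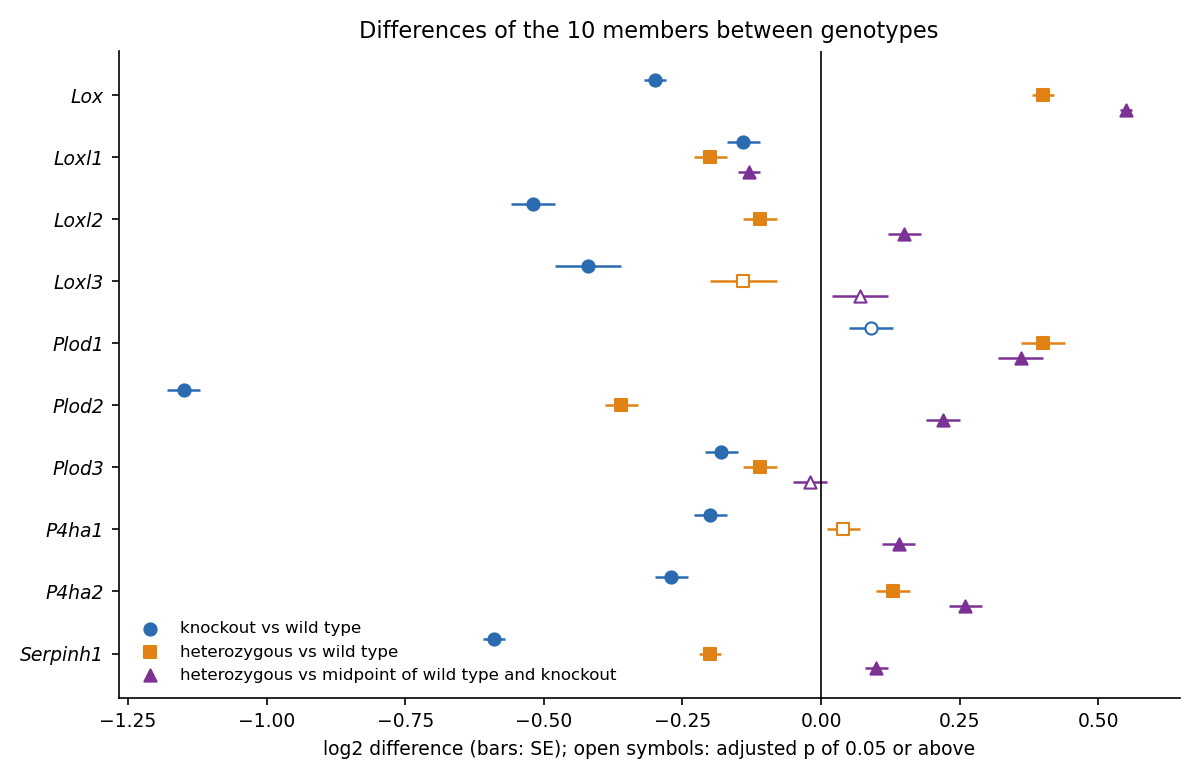
Log2 difference (horizontal axis) with its SE for each of the 10 genes in knockout against wild type (circles), heterozygous against wild type (squares) and heterozygous against the midpoint of wild type and knockout (triangles). Open symbols have an adjusted p of 0.05 or above. The circles run from -1.15 for Plod2 to 0.09 for Plod1, and 7 triangles lie significantly above 0 with Lox furthest at 0.55.

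The heterozygous libraries were also compared directly with the knockout and with the midpoint of the outer genotypes. From heterozygous to knockout, 8 of the 10 genes were called lower and 0 higher, against 17.9% and 19.1% of all tested genes. Lox fell by 0.70 ± 0.02 (adjusted p = 5.25e-33) and Plod2 by 0.80 ± 0.03 (adjusted p = 4.22e-24) in that step. Loxl1 (0.06 ± 0.03, adjusted p = 0.104) and Plod3 (-0.07 ± 0.03, adjusted p = 0.0817) did not pass the threshold, though at an unadjusted p under 0.05 the edgeR counts were 9 lower and 1 higher. DESeq2 called 0 higher there too. With library totals in place of normalised sizes, Loxl1 was higher in knockout by 0.12 (adjusted p = 0.0003). Against the midpoint, 7 of the 10 genes were higher and 1 lower in heterozygous libraries, beside 19.1% and 19.5% of all tested genes. Their median was 0.15, beside -0.0059 for all tested genes. Plod1 (0.36 ± 0.04), P4ha2 (0.26 ± 0.03) and Plod2 (0.22 ± 0.03) followed Lox, whereas Loxl3 (0.07 ± 0.05, adjusted p = 0.267) and Plod3 (-0.02 ± 0.03, adjusted p = 0.625) did not pass the threshold. The whole-table balance depends on scaling in these comparisons. From heterozygous to knockout 3070 genes were higher and 2881 lower as normalised, and 4126 and 2256 with library totals. Against the midpoint the numbers were 3066 and 3124 as normalised, and 2371 and 4082 with library totals. Library totals moved the median of all tested genes to 0.0756 and -0.0586 in these comparisons.

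The collagen chains on which these proteins act moved more than most of the 10 genes did. Of 8 fibrillar collagen genes, 7 fell (87.5%, against 18.9% of all tested genes) and 0 rose in knockout (median log2 difference -0.62), and 6 rose (75.0%, against 19.2%) and 2 fell in heterozygous libraries (median 0.29). Col1a1, the main chain of collagen I, went from 10475 and 10712 CPM in wild type to 5448 and 5380 in knockout and 11932 and 11666 in heterozygous libraries. That is a log2 difference of -0.97 ± 0.02 in knockout (adjusted p = 2.75e-38) and 0.16 ± 0.02 in heterozygous (adjusted p = 4.97e-11). Col1a2, its partner chain, fell by 0.68 ± 0.02 in knockout (adjusted p = 1.78e-31), and Col5a1, a chain of the collagen that starts fibrils, fell by 0.93 ± 0.02 (adjusted p = 2.74e-33). Col3a1 fell by 0.47 ± 0.02 in knockout (adjusted p = 6.15e-25) and rose by 0.55 ± 0.02 in heterozygous libraries (adjusted p = 1.32e-27), where Col11a1 rose by 0.59 ± 0.03 (adjusted p = 1.39e-20). Col5a1 fell in heterozygous libraries too, by 0.17 ± 0.02 (adjusted p = 4.9e-09). Col2a1, the cartilage collagen and a nucleus pulposus marker, also fell there and had the largest difference of the list. It went from 23.0 and 22.6 CPM in wild type to 6.17 and 5.13 in heterozygous libraries (-2.01 ± 0.12, adjusted p = 8.05e-18). It was also the one not called in knockout (-0.10 ± 0.11, adjusted p = 0.52).

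Summed over Col1a1, Col1a2 and Col3a1, collagen stood at 20497 and 20931 CPM in wild type, 24952 and 24283 in the heterozygous and 12101 and 12044 in knockout libraries. On the log2 scale the sum itself differed from wild type by -0.78 in knockout and by 0.25 in heterozygous libraries. A gene with no change would thus have a higher ratio in knockout and a lower one in heterozygous libraries. The median difference of all tested genes in knockout was -0.0031, and their ratios were not computed. Relative to the collagen sum, 9 of the 10 genes were higher in knockout than in wild type and 1 was lower, with a median difference of 0.49. Plod1 (0.87), Loxl1 (0.64) and Plod3 (0.60) had the largest ratio differences, and Serpinh1 (0.19) had the smallest of those above 0. Plod2 alone fell by more than the collagens, with a ratio difference of -0.37. In heterozygous libraries the picture was the opposite: 8 ratios were lower and 2 higher, with a median of -0.36. The higher ones were Plod1 (0.16) and Lox (0.15), and the lowest was again Plod2 (-0.60). These ratios carry no test. With Col1a1 alone as the reference each ratio kept its sign, but several moved by over 1.5 times. In knockout Serpinh1 was then at 0.38, Loxl2 at 0.45, Loxl3 at 0.55 and Plod2 at -0.18. In heterozygous libraries Lox was at 0.24, Plod1 at 0.25, P4ha1 at -0.11 and P4ha2 at -0.03, the last within its error of 0.03.

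**Figure D4:**
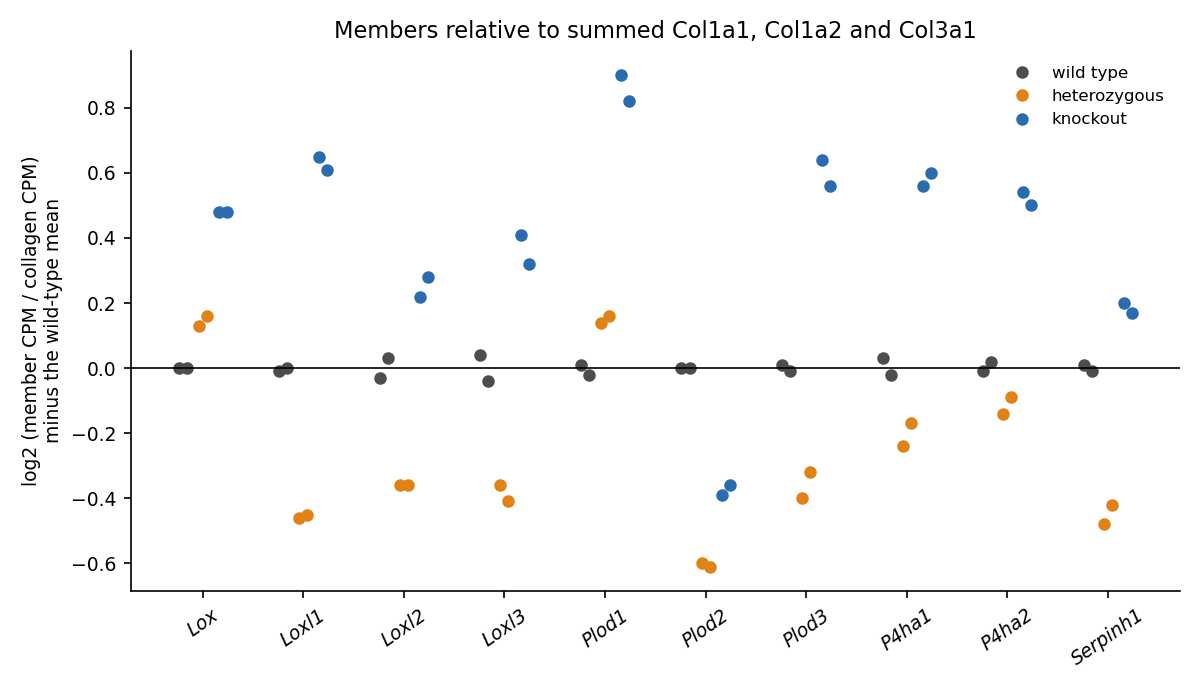
Log2 ratio of each gene's CPM to the summed CPM of Col1a1, Col1a2 and Col3a1, minus its wild-type mean (vertical axis), for 2 libraries of each genotype. The knockout dots lie above 0 for 9 genes and below it for Plod2, and the heterozygous dots lie below 0 for 8 genes and above it for Lox and Plod1. The collagen sum itself was lower in knockout and higher in heterozygous than in wild-type libraries.

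Other genes of collagen folding and modification were followed in lists beside the 10. The counts of each list are to be read against the same shares of all tested genes, 18.9% lower and 19.2% higher in knockout, and 19.7% lower and 19.2% higher in heterozygous libraries. Of 5 tested relatives in the same families or functions, 3 fell (60.0%) and 1 rose in knockout (median -0.24), and 1 rose and 1 fell in heterozygous libraries (median -0.01). P4hb, the beta subunit that both P4ha1 and P4ha2 need, fell by 0.24 ± 0.02 in knockout (adjusted p = 1.08e-12) and by 0.07 ± 0.02 in heterozygous libraries (adjusted p = 0.00919). Colgalt1, which adds galactose to hydroxylysine, rose by 0.11 ± 0.03 in knockout (adjusted p = 0.0055). Loxl4, the remaining lysyl oxidase, resembled Lox in its signs, at -0.19 ± 0.06 in knockout (adjusted p = 0.00879) and 0.62 ± 0.06 in heterozygous libraries (adjusted p = 5.96e-12).

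In a list of 12 genes, most of them of the prolyl 3-hydroxylase complex or collagen-folding isomerases, 7 fell (58.3%) and 2 rose in knockout (median -0.33). In heterozygous libraries 7 rose (58.3%) and 1 fell (median 0.15). The list also holds Sparc, counted among those that fell in knockout, and Tmem38b, counted among those that rose, which are neither. P3h1, which hydroxylates a single proline position of collagen I in a complex with Crtap, fell by 0.90 ± 0.04 in knockout (adjusted p = 7.37e-22). Fkbp10, an isomerase that works with Plod2, fell by 0.65 ± 0.03 (adjusted p = 1.55e-21), and its relative Fkbp9 by 0.37 ± 0.03 (adjusted p = 1.25e-14). Sparc, a collagen-binding matrix protein, went from 2835 and 2804 CPM in wild type to 1987 and 1973 in knockout and 3319 and 3327 in heterozygous libraries. It thus fell in one altered genotype (-0.51 ± 0.02, adjusted p = 4.79e-26) and rose in the other (0.24 ± 0.02, adjusted p = 1.12e-14), with the signs that Lox showed. P3h3, which acts with Plod1, rose by 0.46 ± 0.04 in heterozygous libraries (adjusted p = 2.79e-13).

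Genes of procollagen export from the endoplasmic reticulum fell in knockout in 10 of 14 cases (71.4%) and rose in 0 (median -0.25), and 4 rose (28.6%) and 3 fell (21.4%) in heterozygous libraries (median -0.00). Creb3l1, a transcription factor known to drive secretion of collagen, fell by 0.78 ± 0.06 (adjusted p = 5.89e-15) and Sec23a, a coat protein of export vesicles, by 0.54 ± 0.04 (adjusted p = 8.77e-15). The coat proteins Sec31a (-0.30 ± 0.03, adjusted p = 1.22e-11) and Sec13 (-0.36 ± 0.05, adjusted p = 2.52e-08) were also lower. In heterozygous libraries Sec13 was lower by 0.50 ± 0.05 (adjusted p = 1.04e-11) and Creb3l2 higher by 0.22 ± 0.05 (adjusted p = 0.000627). Among 7 tested propeptidases and enhancers, which trim procollagen ends, 4 fell (57.1%) and 2 rose (28.6%) in knockout (median -0.22), and 4 rose (57.1%) and 3 fell (42.9%) in heterozygous libraries (median 0.40). Bmp1, which also activates Lox, fell by 0.38 ± 0.04 in knockout (adjusted p = 4.1e-11), Pcolce, its enhancer, by 0.22 ± 0.03 (adjusted p = 2.59e-08), and Adamts14 by 1.02 ± 0.16 (adjusted p = 1.29e-06). Adamts2, the main aminopropeptidase, rose in both, by 0.20 ± 0.03 in knockout (adjusted p = 4.31e-06) and by 0.84 ± 0.03 in heterozygous libraries (adjusted p = 4.55e-24), and Pcolce rose by 0.40 ± 0.03 in the latter (adjusted p = 1.1e-15).

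Of 9 genes of copper supply and of matrix partners of lysyl oxidases, 3 rose and 3 fell (33.3% each) in knockout (median -0.02), and 7 rose (77.8%) and 0 fell in heterozygous libraries (median 0.29). For the counts of 0 in this list, in procollagen export and in the fibrillar collagens, edgeR's unadjusted p under 0.05 also gave 0. Postn, a matrix protein that brings Bmp1 to Lox, was at 1050 and 1044 CPM in wild type, 3125 and 3099 in the heterozygous and 507 and 510 in knockout libraries. It followed the direction of Lox with larger steps, at 1.57 ± 0.02 (adjusted p = 3.67e-42) and -1.04 ± 0.02 (adjusted p = 2.43e-35). Fn1, another scaffold, fell by 0.62 ± 0.02 in knockout (adjusted p = 4.74e-32). Eln, the elastin that Lox and Loxl1 crosslink, fell from 18.5 and 16.4 CPM to 2.85 and 1.29 in knockout (-3.08 ± 0.19, adjusted p = 2.22e-11). Efemp2, which tethers Lox to elastin, rose by 0.29 ± 0.03 in knockout (adjusted p = 8.77e-12), and Fmod, a small proteoglycan that steers crosslinking, rose by 1.43 ± 0.02 in heterozygous libraries (adjusted p = 1.51e-39).

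A pair of further lists was set beside the 10 genes because several of these respond to low oxygen or to protein-folding load. Of 16 hypoxia-induced genes outside collagen biology, 5 rose (31.2%) and 7 fell (43.8%) in knockout (median -0.02), and 9 rose (56.2%) and 3 fell (18.8%) in heterozygous libraries (median 0.19). Ldha (-0.37 ± 0.02, adjusted p = 1.47e-18) and the glucose transporter Slc2a1 (-0.46 ± 0.03, adjusted p = 7.77e-15) fell in knockout, while Adm (0.67 ± 0.04, adjusted p = 4.99e-17) and Ndrg1 (0.67 ± 0.05, adjusted p = 3.62e-16) rose. Adm (0.79 ± 0.04, adjusted p = 2.94e-19) and Ndrg1 (1.17 ± 0.05, adjusted p = 9.37e-25) rose in heterozygous libraries as well. Of 13 endoplasmic reticulum chaperones of general use, 3 rose (23.1%) and 2 fell (15.4%) in knockout (median -0.01), shares near those of all tested genes. In heterozygous libraries 3 rose (23.1%) and 7 fell (53.8%; median -0.06). Sdf2l1 rose by 0.40 ± 0.07 (adjusted p = 5.69e-06), Dnajb9 by 0.29 ± 0.08 (adjusted p = 0.00262) and Dnajc3 by 0.16 ± 0.04 (adjusted p = 0.000561) in knockout. Hspa5, the main chaperone of the compartment, fell by 0.08 ± 0.02 in knockout (adjusted p = 0.00163) and by 0.20 ± 0.02 in heterozygous libraries (adjusted p = 3.25e-10), where Pdia6 fell by 0.15 ± 0.03 (adjusted p = 2.32e-05).

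**Figure D5:**
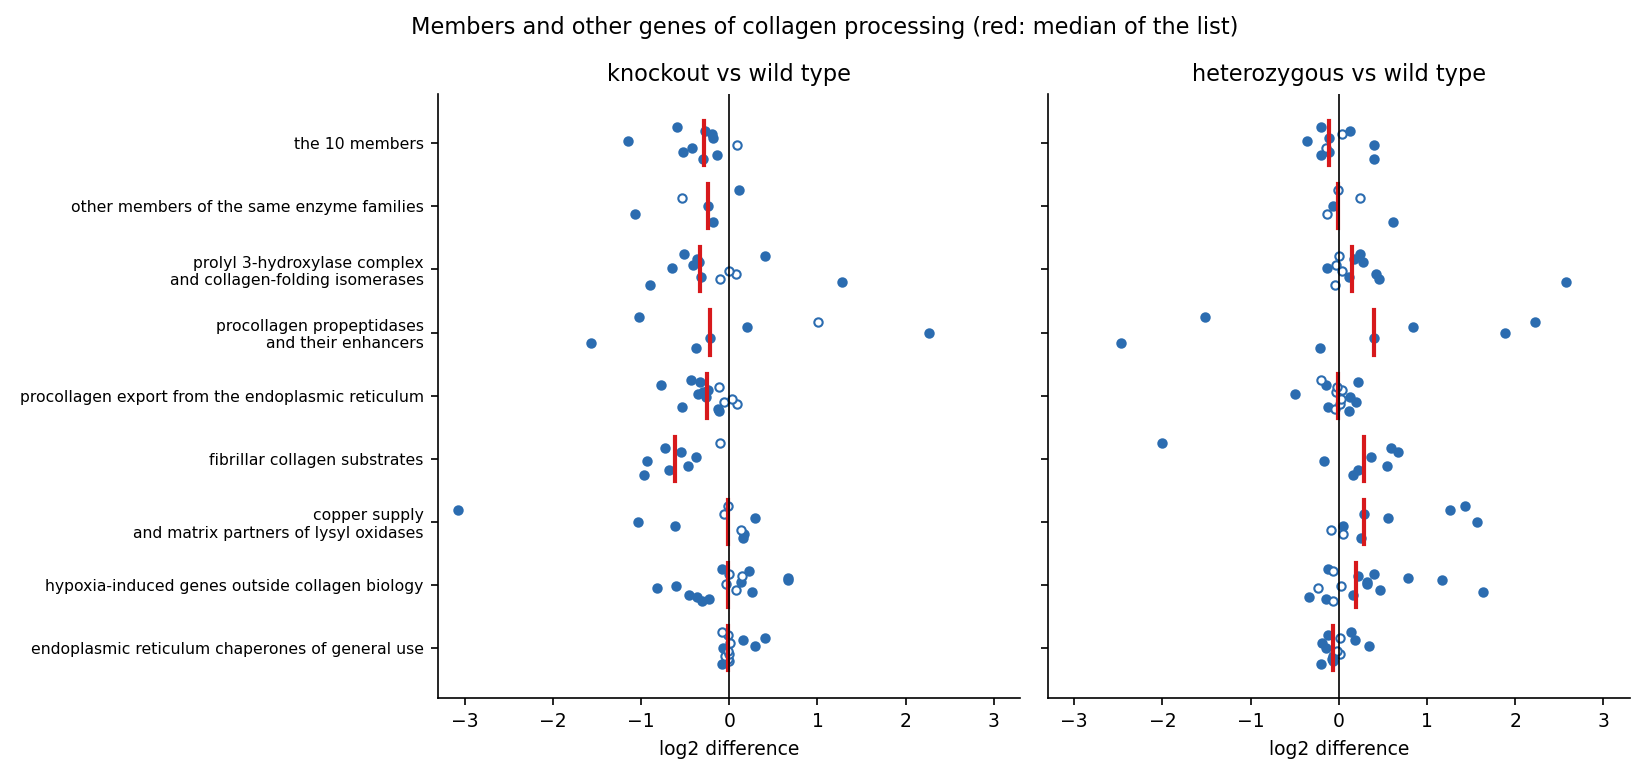
Log2 difference (horizontal axes) of each tested gene in the 10-gene set and in 8 other lists, for knockout against wild type (left) and heterozygous against wild type (right). Filled dots passed the threshold of 0.05, open dots did not, and red bars are list medians. In knockout the medians run from -0.62 for fibrillar collagens to -0.01 for general chaperones, and in heterozygous from -0.11 for the 10 genes to 0.40 for propeptidases.

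Markers of other cell types moved with genotype too. The 10 fibroblast markers include 3 of the collagens. The other 7 summed to 17372 and 17545 CPM in wild type, 20770 and 20234 in the heterozygous and 11501 and 11436 in knockout libraries. Lox shares this order. Fn1 gave the largest part of the sum, with means of 15431 CPM in wild type, 15950 in the heterozygous and 10047 in knockout libraries. Mean Postn was 1047, 3112 and 509 CPM in the same sequence of genotypes. Within the list of 10, 7 markers fell and 3 rose in knockout, beside 18.9% and 19.2% of all tested genes. None of the 10 was at 0. Dcn was at 115 and 112 CPM in wild type against 201 and 200 in knockout, and Thy1 at 370 and 367 against 166 and 164. The list thus did not move as a unit from wild type to knockout. From wild type to heterozygous 9 were higher and 1 lower, beside 19.2% and 19.7% of all tested genes. In knockout against heterozygous 0 were higher and 10 lower, beside 19.1% and 17.9%. The 8 smooth muscle and myofibroblast markers, with none at 0, summed to 4165 and 4108 CPM in wild type, 2852 and 2893 in the heterozygous and 2443 and 2394 in knockout libraries, the order of Plod2 and Serpinh1. The 10 adipocyte markers, with Lep at 0, summed to 209 to 212, 392 to 396 and 508 to 512 CPM in the same sequence of genotypes. The 8 endothelial markers, with Cldn5 at 0, were low and summed to 39.6 and 38.8 CPM in wild type, 35.4 and 32.2 in the heterozygous and 77.7 and 81.1 in knockout libraries. They did not move as a unit. Of 6 tested, 3 were higher and 1 lower in knockout than in wild type, beside 19.2% and 18.9% of all tested genes. Mean Vwf went from 20.4 to 54.9 CPM, and mean Cdh5 from 6.54 to 0.993. The 7 Schwann and neuron markers stepped down from 156 and 160 CPM in wild type to 113 and 107 in the heterozygous and 92.9 and 84.6 in knockout libraries, again the order of Plod2 and Serpinh1. The 8 osteoblast markers, with Sost at 0, summed to between 42.5 and 57.0 CPM in all libraries, but single markers moved in opposite directions. Of 5 tested, 2 were higher and 2 lower in knockout than in wild type. Mean Alpl went from 9.71 to 29.3 CPM, and mean Runx2 from 35.2 to 22.9. The part of cell composition in the differences of the 10 genes was not tested.

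The 10 genes did not share a single pattern over the 6 libraries. Likeness was measured as the root mean square difference of log2 CPM, centred on each gene's mean. The closest pairs were Loxl2 with Serpinh1 (0.055), Loxl1 with Plod3 (0.059) and P4ha1 with P4ha2 (0.070), and Plod1 with Plod2 were the farthest apart (0.511). Among 9651 named genes whose mean was 3 log2 CPM or more, the closest to Lox were Apoe (0.027) and Lamb1 (0.028). Crtap, the partner of P3h1, was among the 2 closest to Plod1 (0.022), beside Khnyn (0.021). Nearest to Loxl2 were Msrb3 (0.023) and Kdelr2 (0.034), and nearest to Serpinh1 were Pck2 (0.024) and Tgfb1i1 (0.027). Plod2 had the most distant neighbours, Mxra7 (0.056) and Obsl1 (0.060). The remaining nearest pairs were Senp3 (0.015) and Samd4b (0.017) for Loxl1, Fam83h (0.028) and Suox (0.029) for Loxl3, and Aebp2 (0.016) and Mea1 (0.018) for Plod3. For P4ha1 they were Maea (0.018) and Ganab (0.020), and for P4ha2 Ndrg4 (0.024) and Nek8 (0.024).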

How the data were processed

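Counts per gene symbol were deposited by the authors in 1 table with a column per library, matched here to samples by title. The values are whole numbers with differing totals. Per the submitters' processing notes, the tool HISAT2 (version 2.0.4) and the build GRCm38 were used. The counting program, annotation and strand setting were not given in those sources. Tests used edgeR version 4.0.16 (R version 4.3.3): TMM scaling, the default filter by genotype (minimum count 10, Chsy3 always kept), 1 quasi-likelihood fit over 6 libraries (robust, 3 residual degrees of freedom), two-sided F tests, and Benjamini-Hochberg adjustment over 16061 genes with a threshold of 0.05. The procedure was tested on simulated data. The SE is the log2 difference divided by the root of F. CPM per kilobase uses merged exon lengths of the GENCODE annotation of GRCm38, which also gave positions. Log2 CPM used a prior count of 2. Counting limits cover counting error only. Whether both libraries of a genotype are from different cultures or animals is not labelled, so the p-values reflect the spread of these libraries alone, which may be technical.

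The members and lists were chosen with earlier results of these data known. Named genes are all members, from each other list that is no marker list up to 4 genes with the smallest p in knockout and up to 2 in heterozygous against wild type, and 2 nearest genes per member. A few collagen (Col2a1 among them), elastin or marker values and partners of a member were added after values were seen, and one list gene was matched by its older symbol. Alternatives were RLE factors, library totals, DESeq2 version 1.42.0, no filter, minimum count 50, a replicate block, each library left out, only the libraries compared, and Col1a1 as the sole reference.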

Additional observations from a re-analysis of the deposited data

How the results depend on the processing

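Over 510 recomputed log2 differences of the 10 genes, 491 stayed on their side of the threshold, 15 passed it newly and 4 no longer passed. Rounded to 2 decimals, 3 values did not keep their sign, none of them past the threshold. These were 1 of P4ha1 in heterozygous against wild type, which was 0.00, and 2 of Plod3 against the midpoint, where the highest value was 0.01. With library totals alone, 1 gene was higher in knockout than in wild type (Plod1), 1 was higher in knockout than in heterozygous (Loxl1), and 2 were lower than the midpoint in heterozygous (Loxl1 and Plod3, the latter at -0.07, adjusted p = 0.0322). The count of genes higher in knockout than in wild type ranged from 0 to 1 when each library was left out in turn. Plod3 was lower in knockout than in heterozygous with RLE factors (adjusted p = 0.0452), with DESeq2 (0.0467), without knockout replicate 1 (0.0224) and with only the 4 libraries compared (0.0332). For the other changed calls, which stand beside their genes above, the cause was not tested.

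A replicate block left the counts in knockout against wild type at 0 higher and 9 lower and added Loxl3 (adjusted p = 0.0431) to the genes lower in heterozygous than in wild type, 6 in all. Deviations of libraries with the same number correlated at -0.00709, 0.0137 and 0.0178 over 10040 genes, so the numbers do not pair the samples. With 2 libraries per genotype, the calls of small differences such as those of Loxl2, Loxl3, Plod3 and P4ha2 in heterozygous libraries are the least certain.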

Other observations

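Lox and Chsy3 share chromosome 18, and the tested genes around Chsy3 were counted without them. Of 101 tested genes within 10 megabases of Chsy3, 50 (49.5%) were called in knockout against wild type, beside 38.0% of all tested genes. In heterozygous against wild type 38 (37.6%) were called, beside 38.9%, and in knockout against heterozygous 49 (48.5%), beside 37.1%. These shares are descriptions and were not tested.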
